A study of Anopheles gambiae with 36 samples.

Results

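G protein-coupled receptors (GPCRs) carry signals from hormones, peptides, small transmitters and neighbouring cells across the membrane to G proteins inside the cell. Besides the amine receptors that are usually studied in insect hearing, the family holds receptors for peptide hormones, large adhesion receptors that bind other cells or the matrix, and many members whose ligand is not known. The Johnston's organ (JO), the mosquito ear in the second antennal segment, is a chordotonal organ that receives efferent nerve fibres, and receptors of this superfamily are among the proteins through which such input can act. The receptors described here are those that the study lists under GPCR activity among its transcripts expressed in the JO, after leaving out every gene that it singles out by name in its own summary of neuromodulator receptors, AGAP000045, AGAP005681 and AGAP002566 among them. This left 45 transcripts of 42 genes, out of 59 listed under GPCR activity, 172 listed for neuromodulation in all and 15863 transcripts in the whole table. Of the 45, 36 were listed for both sexes, 6 in the female list alone and 3 in the male list alone. The lists were drawn from the levels in these same libraries, so for the 9 members of a single list the listing itself bears on the contrast between the sexes. A symbol was given for 21 of them, which places them in families, and 24 are known only by their identifiers.

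The JO of male and female Anopheles gambiae of the Kisumu strain was collected every 4 h from ZT0 to ZT20, where ZT (zeitgeber time) gives the hours since lights on and ZT12 is the swarm time at the start of dusk. All groups were kept in a cycle of 12 h light and 12 h dark and were 3 to 7 days old. They differed in sex and time of collection. Males and females were also hatched in different cages, so sex and cage cannot be told apart. For each collection 35 mosquitoes are given in the methods, which do not state how many entered a library, and the labels do not say whether libraries of a group came from separate cohorts. The third male ZT12 library, which the authors discarded, was left out. In the comparisons, 17 male and 18 female libraries remained, which is 3 per sex and time point and 2 for males at ZT12.

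The depth of the libraries, as total estimated counts, lay between 9341559 and 18255021 and had much the same range in both sexes. Opsins, which are expressed in the eye, were present in every library, and none of the 10 opsin transcripts was at 0 in any of them. They took 1.39 to 13.7% of the counts in male libraries (median 4.58%) and 9.37 to 45.6% in female libraries (median 27.0%), and all 10 were higher in females. Sex and the opsin level therefore overlapped over a narrow range only, and their parts in a sex difference can largely not be told apart. A fit with the opsin level as a covariate is given beside the results that it touches. Orco, the co-receptor of olfactory neurons in the flagellum, had a median normalised count of 3.78 in males and 28.5 in females. The highest female libraries had 291 and 166, and 1 male ZT16 library had 127 where the next male library had 18.6. Defining genes of JO neurons were not checked, because no table used here names them.

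Most of these receptors differed between the sexes, and most of those were higher in females. By edgeR's quasi-likelihood test with Benjamini-Hochberg adjustment over all transcripts, 38 of the 45 members had an adjusted p under 0.05, against 67.2% of all 12898 transcripts tested. Females had the higher level for 30 members and males for 8, where 33.7% and 33.5% of all transcripts were called in those directions. A change of more than 2-fold was called for 22 members towards females and 2 towards males, against 19.8% and 8.56% of all transcripts. The median log2 fold change (male over female) was -0.99 over the 45 members and -0.0039 over all transcripts. It was -1.17 over the other 127 listed transcripts, of which 81 were higher in females and 28 in males. The counts over the 45 members include those of a single list, for which the listing itself bears on the contrast. Among the 36 members listed for both sexes, 31 were called, 25 higher in females and 6 in males. Changes of more than 2-fold were not counted for these 36 alone. In bulk tissue, a lower level from fewer cells and from less RNA per cell cannot be told apart.

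The split between the sexes moved with the scaling and with the opsin level. When libraries were scaled by their total counts alone, 14 members were higher in males and 20 in females, where 56.6% and 19.6% of all transcripts were called, and the median of all transcripts moved to 0.52. Relative to that shift, the median of the members was -1.06, compared with -0.98 under the scaling used elsewhere. GPRCIR, GPRADS, GPRNNA15, AGAP009661-RA and AGAP002881-RA, which were not called under that other scaling, were called higher in males with total counts. With the opsin level as a covariate, 10 members were called, 2 higher in males and 8 higher in females, where 14.5% and 13.9% of all transcripts were called. All 10 had the same direction as without the covariate. Leaving out replicate 2 of every group left 4 members higher in males.

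**Figure D1:**
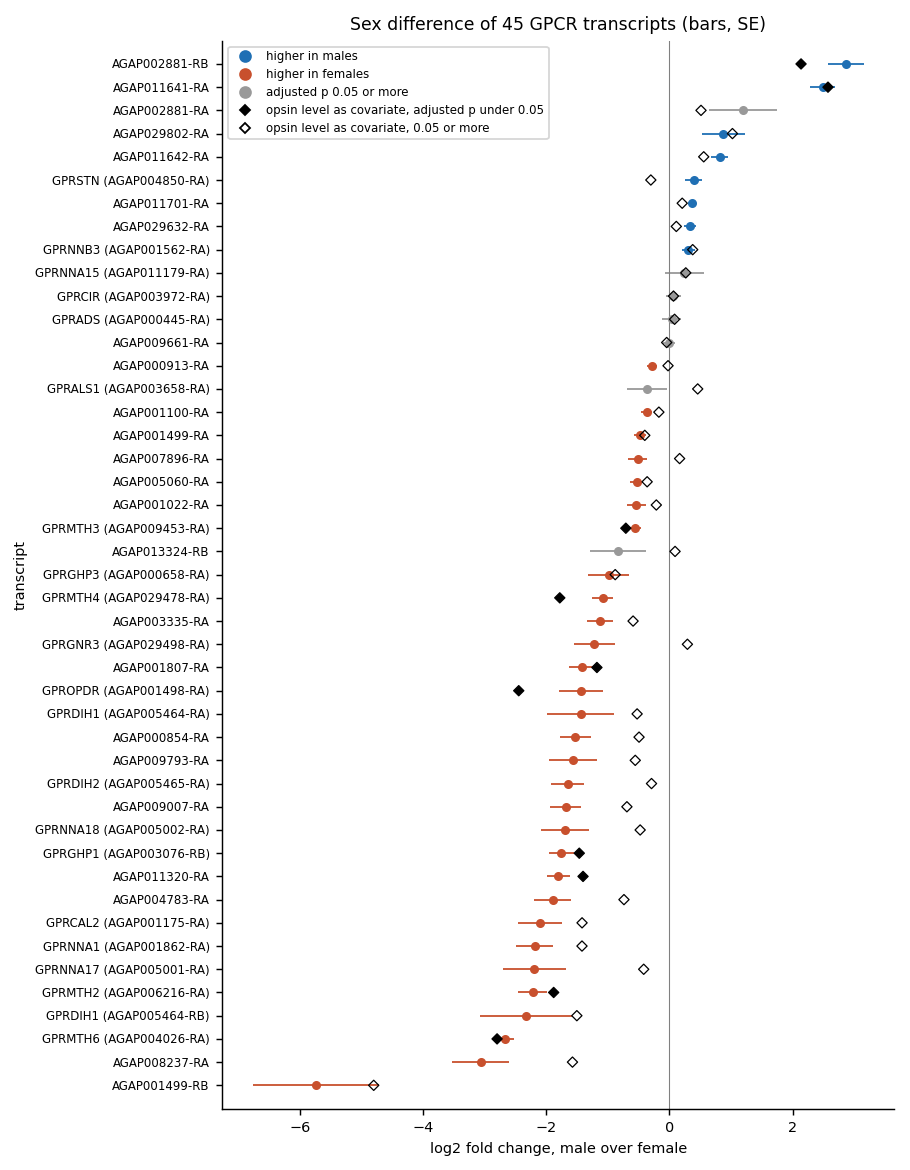
The log2 fold change (male over female, x axis) is shown for each of the 45 transcripts, with circles and SE bars for the model of time point and sex and diamonds for the same model with the opsin level as covariate. The 30 transcripts higher in females lie on the left, and 10 diamonds are filled, 8 of them on the female side.

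The methuselah family was the only group of more than 1 named receptor in which every member was higher in females both with and without the opsin covariate. These receptors are named after the Drosophila gene methuselah, which is known for its effects on lifespan and stress resistance. Normalised counts of GPRMTH6 (AGAP004026-RA) ran from 69.2 to 169 in males, with a median of 106, and from 426 to 1218 in females, with a median of 693. No male library reached the lowest female library. Its log2 fold change was -2.67 ± 0.14 (SE; adjusted p = 1.22e-16, edgeR's quasi-likelihood test), or 6.37-fold, and -2.80 with the opsin covariate (adjusted p = 7.28e-09).

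GPRMTH2 (AGAP006216-RA) was the next of this family in size of difference. Its male libraries lay between 4.61 and 38.3 (median 18.1) and its female libraries between 35.4 and 190.4 (median 81.8), so that the groups met only at their edges. The log2 fold change was -2.22 ± 0.24 (SE; adjusted p = 9.98e-10, edgeR's quasi-likelihood test) and -1.88 with the covariate (adjusted p = 0.00389). For GPRMTH4 (AGAP029478-RA), males ran from 61.5 to 177 (median 104) and females from 93.6 to 405 (median 215). Here the groups overlapped, with a log2 fold change of -1.08 ± 0.17 (SE; adjusted p = 1.49e-06, edgeR's quasi-likelihood test) that was larger with the opsin covariate, at -1.78 (adjusted p = 4.95e-05). GPRMTH3 (AGAP009453-RA) had the smallest difference of the family. Its counts ran from 274 to 489 in males and from 252 to 656 in females, with medians of 301 and 469. The log2 fold change was -0.56 ± 0.10 (SE; adjusted p = 1.39e-05, edgeR's quasi-likelihood test) and -0.71 with the covariate, but only -0.07 when libraries were scaled by total counts.

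The class B receptors with a name or class symbol, 5 transcripts of 4 genes, were mostly higher in females, and none of them was called with the opsin covariate. GPRDIH1 and GPRDIH2 carry the symbol of diuretic hormone receptors, which in insects act in fluid secretion by the Malpighian tubules, and GPRCAL2 that of a calcitonin-like receptor. GPRDIH2 (AGAP005465-RA) ran from 20.7 to 163 normalised counts in males (median 64.5) and from 73.7 to 557 in females (median 218). Its groups overlapped, and its log2 fold change of -1.65 ± 0.26 (SE; adjusted p = 2.13e-06, edgeR's quasi-likelihood test) became -0.29 with the covariate (adjusted p = 0.689). GPRCAL2 (AGAP001175-RA) ran from 3.49 to 59.9 in males and from 10.2 to 143 in females, with medians of 13.3 and 71.2 and a log2 fold change of -2.10 ± 0.36 (SE; adjusted p = 5.93e-06, edgeR's quasi-likelihood test). GPRNNB3 (AGAP001562-RA), a class B receptor without a ligand name, was the exception in this group. Its male libraries ran from 515 to 998 (median 679) and its female libraries from 362 to 828 (median 585), with a small difference towards males of 0.31 ± 0.11 (log2, SE; adjusted p = 0.0124, edgeR's quasi-likelihood test) that was no longer called without replicate 1 or 2.

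GPRDIH1 (AGAP005464) has an RA and an RB isoform among the members, and their estimated counts exchanged between libraries. The share of RB in the sum of both went from 0 to 100% in either sex. It was at least 90% in 2 of 17 male and 2 of 18 female libraries, and RA was at least 90% in 7 male and 3 female libraries. Replicates of a single time point could be nearly all RA or nearly all RB. A read that matches both isoforms is divided between them by the estimation, and the part of that step in the exchange was not tested. Summed over both, normalised counts ran from 29.1 to 126 in males (median 61.4) and from 108 to 365 in females (median 219.7). These sums overlapped only at their edges, with a log2 fold change of -1.73 ± 0.18 (SE; adjusted p = 7.98e-10, edgeR's quasi-likelihood test on gene sums). Taken singly, RA gave -1.44 (adjusted p = 0.0200) and RB -2.33 (adjusted p = 0.00707), and the call of RA was lost without replicate 1 or 3.

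**Figure D2:**
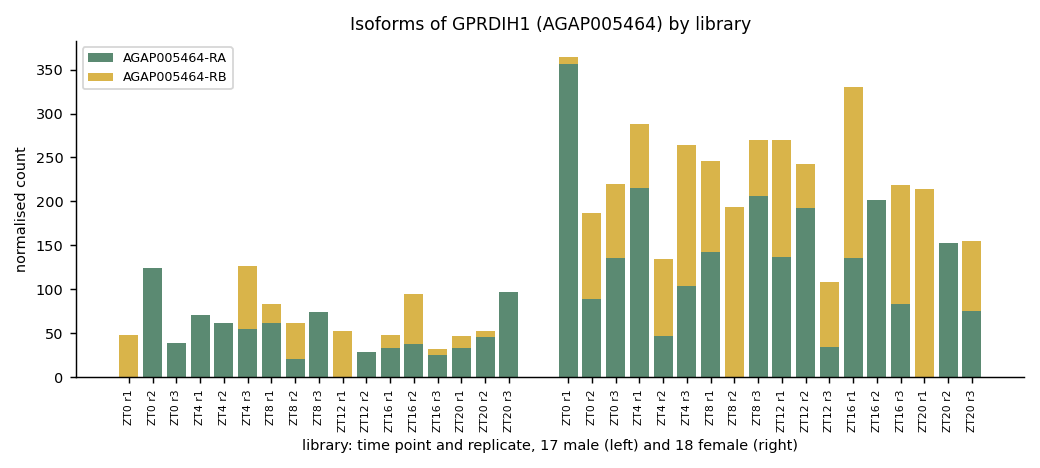
Each bar is a library (17 male, then 18 female, by time point and replicate), and its height is the summed normalised count of GPRDIH1, divided into isoforms RA and RB. Female sums (108 to 365) stood above nearly all male sums (29.1 to 126), while the division between RA and RB ranged from 0 to 100%.

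Under the main scaling, both adhesion receptors showed little difference between the sexes, while with total counts both were called higher in males. GPRCIR (AGAP003972-RA) is the latrophilin of this set, and its Drosophila counterpart Cirl tunes the mechanical sensitivity of chordotonal neurons. Its male libraries ran from 118 to 277 normalised counts (median 193) and its female libraries from 88.0 to 321 (median 202). The groups lay over each other, and the log2 fold change was 0.06 ± 0.13 (SE; adjusted p = 0.679, edgeR's quasi-likelihood test) and 0.07 with the opsin covariate. With total counts it was 0.57 (adjusted p = 0.00117, edgeR's quasi-likelihood test), where the median of all transcripts was 0.52. GPRSTN (AGAP004850-RA) carries the symbol of starry night, also known as flamingo, which in Drosophila acts in planar cell polarity. It ran from 441 to 982 in males (median 665) and from 291 to 920.1 in females (median 543). The sexes overlapped widely, and the difference of 0.39 ± 0.13 towards males (log2, SE; adjusted p = 0.0105, edgeR's quasi-likelihood test) had the other sign with the opsin covariate, at -0.30 (adjusted p = 0.369), and was not called without replicate 2 or 3.

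Of the 4 receptors with a peptide or hormone symbol, 3 were higher in females. GPRGHP1 (AGAP003076-RB) ran from 12.1 to 54.1 normalised counts in males (median 26.4) and from 29.1 to 155 in females (median 107). Its groups overlapped in part, with a log2 fold change of -1.75 ± 0.21 (SE; adjusted p = 1.04e-08, edgeR's quasi-likelihood test), and it was the only one of the 4 called with the opsin covariate, at -1.47 (adjusted p = 0.00736). GPRGNR3 (AGAP029498-RA) bears the symbol of the gonadotropin-releasing hormone receptor family, to which the adipokinetic hormone and corazonin receptors of insects belong. Males ran from 8.83 to 60.2 (median 30.2) and females from 10.2 to 181 (median 66.6), and the log2 fold change of -1.22 ± 0.33 (SE; adjusted p = 0.00190, edgeR's quasi-likelihood test) changed sign with the covariate, to 0.29 (adjusted p = 0.775). GPRGHP3 (AGAP000658-RA) had medians of 13.1 in males and 28.6 in females and a log2 fold change of -0.99 ± 0.33 (SE; adjusted p = 0.0103, edgeR's quasi-likelihood test), and its call was lost without replicate 1 or 3. GPRALS1 (AGAP003658-RA), an allatostatin receptor by its symbol, ran from 37.6 to 107 in males and from 3.07 to 324 in females. The wide female range enclosed all male libraries, and its log2 fold change of -0.37 ± 0.32 (SE) was not called (adjusted p = 0.318, edgeR's quasi-likelihood test) and had the other sign with the opsin covariate (0.46) and with total counts (0.21).

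The class A receptors without a ligand name, GPRNNA1, GPRNNA15, GPRNNA17 and GPRNNA18, included 3 that were higher in females. GPRNNA1 (AGAP001862-RA), from the female list alone, ran from 0.894 to 11.1 in males (median 4.25) and from 7.01 to 45.2 in females (median 22.9). The groups met only at their edges, with a log2 fold change of -2.19 ± 0.30 (SE; adjusted p = 1.43e-07, edgeR's quasi-likelihood test). GPRNNA17 (AGAP005001-RA), also from the female list alone, had a log2 fold change of -2.19 ± 0.51 (SE; adjusted p = 0.000388, edgeR's quasi-likelihood test), with a median of 6.15 in males and 33.6 in females and 1 female library at 0. GPRNNA18 (AGAP005002-RA) had medians of 40.8 and 129.6 and a log2 fold change of -1.69 ± 0.39 (SE; adjusted p = 0.000299, edgeR's quasi-likelihood test). GPRNNA15 (AGAP011179-RA) differed from these in having like medians, 26.4 in males and 22.9 in females, and was not called (log2 fold change 0.24 ± 0.32, SE; adjusted p = 0.505, edgeR's quasi-likelihood test). With the opsin covariate, none of the 4 was called.

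GPRADS (AGAP000445-RA) is an adenosine receptor by its symbol. Males ran from 40.2 to 88.4 and females from 21.0 to 90.4, with means of 56.6 and 55.9, and the log2 fold change was 0.04 ± 0.16 (SE; adjusted p = 0.851, edgeR's quasi-likelihood test). With total counts it was 0.53 (adjusted p = 0.0107, edgeR's quasi-likelihood test). GPROPDR (AGAP001498-RA), from the female list alone, ran from 2.95 to 22.8 in males (median 9.76) and from 0 to 65.5 in females (median 21.7). Its groups overlapped, and the log2 fold change of -1.44 ± 0.36 (SE; adjusted p = 0.000820, edgeR's quasi-likelihood test) was larger with the opsin covariate, at -2.45 (adjusted p = 0.0104).

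Among the 24 members without a symbol were the receptors with the clearest male excess. AGAP011641-RA ran from 436 to 658 normalised counts in males (median 536) and from 28.5 to 273 in females (median 99.4). Every male library lay above every female library, a pattern seen for 2 members (4.44%), near the 4.39% of all transcripts. The log2 fold change was 2.49 ± 0.20 (SE; adjusted p = 2.69e-12, edgeR's quasi-likelihood test), or 5.60-fold, and 2.57 with the opsin covariate (adjusted p = 7.16e-06). The other member with this separation was AGAP002881-RB, from the male list alone, so its listing bears on the separation and on its test. It ran from 74.1 to 207 in males (median 135) and from 1.91 to 55.4 in females (median 16.7), with a log2 fold change of 2.86 ± 0.29 (SE; adjusted p = 5.40e-10, edgeR's quasi-likelihood test) and 2.14 with the covariate (adjusted p = 0.00342). The RA isoform of the same gene, also from the male list alone, had a median of 11.9 in males and 3.69 in females and was not called (log2 fold change 1.19 ± 0.55, SE; adjusted p = 0.0550, edgeR's quasi-likelihood test). The sum of both isoforms had a log2 fold change of 2.61 ± 0.29 (SE).

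The remaining members higher in males had smaller differences. AGAP011642-RA ran from 101 to 207 in males (median 154) and from 52.8 to 159 in females (median 88.3), with a log2 fold change of 0.81 ± 0.14 (SE; adjusted p = 4.55e-06, edgeR's quasi-likelihood test). AGAP029802-RA, from the male list alone, had medians of 15.6 in males and 7.70 in females and a log2 fold change of 0.87 ± 0.35 (SE; adjusted p = 0.0291, edgeR's quasi-likelihood test), which was not called once any 1 of the 3 replicates was left out. The sexes overlapped for both of these transcripts. AGAP011701-RA ran from 483 to 639 in males and from 321 to 590.3 in females, and AGAP029632-RA from 279 to 516 and from 205 to 489, with log2 fold changes of 0.36 ± 0.07 and 0.33 ± 0.09 (SE). The call of AGAP029632-RA was lost without replicate 2.

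Towards females, AGAP011320-RA was the second member in which every female library lay above every male library, besides GPRMTH6. This pattern was seen in 4.44% of the members and 5.16% of all transcripts. It ran from 14.6 to 52.8 in males (median 30.2) and from 64.5 to 238 in females (median 99.2). The log2 fold change was -1.81 ± 0.19 (SE; adjusted p = 8.84e-10, edgeR's quasi-likelihood test) and -1.40 with the opsin covariate (adjusted p = 0.00460). AGAP001807-RA, whose medians were 56.8 in males and 180.5 in females, was the other member of this group called with the covariate (log2 fold change -1.43 without and -1.18 with it, adjusted p = 0.0398, edgeR's quasi-likelihood test).

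**Figure D3:**
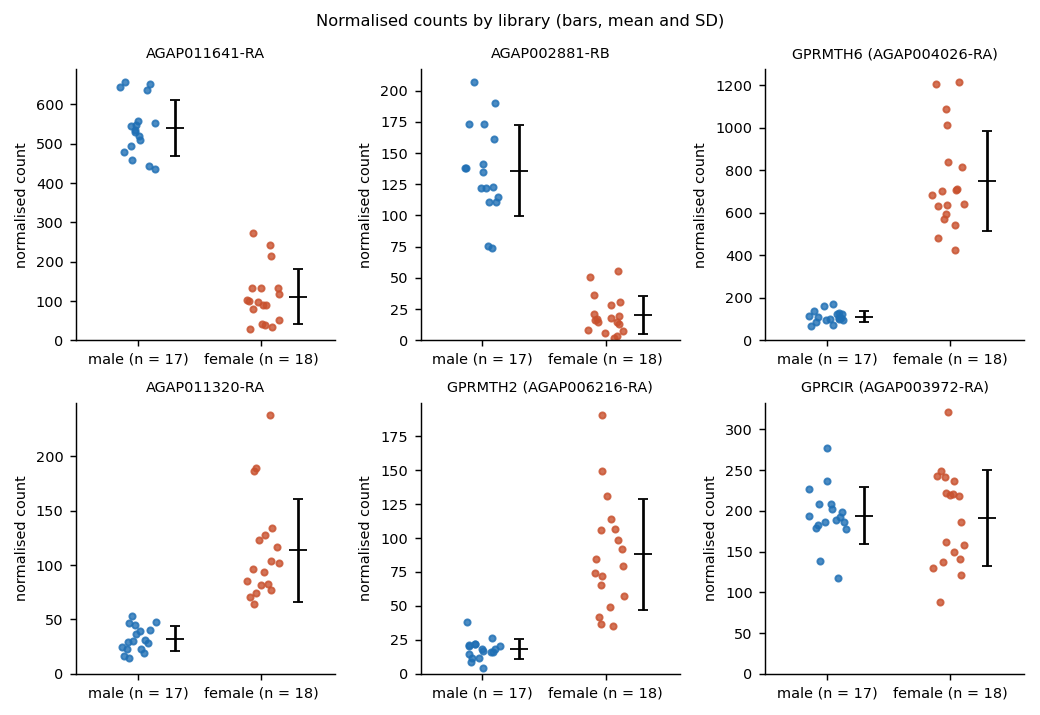
Normalised counts (y axis) of 6 receptors are plotted for each male and female library, with the mean and SD beside them. AGAP011641-RA and AGAP002881-RB show all 17 male libraries above the females, GPRMTH6 and AGAP011320-RA all 18 female libraries above the males, GPRMTH2 a narrow overlap and GPRCIR a full one.

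AGAP001499-RB, from the female list alone, was at 0 in 16 of 17 male libraries, with 11.1 normalised counts in the remaining one, and in 8 of 18 female libraries, where the highest was 69.6. It was called higher in females (adjusted p = 1.22e-05, edgeR's quasi-likelihood test), and no fold is given because nearly all male libraries were at 0. The RA isoform carried the bulk of this gene's estimated counts, 99.8% on average in males and 93.9% in females, and differed by -0.48 ± 0.10 (log2, SE). AGAP008237-RA, again from the female list alone, ran from 0 to 61.9 in males (median 11.7) and from 0 to 286 in females (median 64.7). With 3 male libraries and 1 female library at 0 its groups overlapped, and the log2 fold change was -3.06 ± 0.46 (SE; adjusted p = 7.96e-07, edgeR's quasi-likelihood test) and -1.58 with the covariate (adjusted p = 0.136). AGAP009661-RA, the sixth member of the female list alone, had like medians of 382 in males and 386 in females and was not called (log2 fold change -0.01 ± 0.10, SE; adjusted p = 0.965, edgeR's quasi-likelihood test).

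In all, 15 of the 24 members without a symbol were higher in females, 6 were higher in males and 3 were not called. The log2 fold changes of those higher in females reached down to -0.28, that of AGAP000913-RA, which with AGAP001100-RA (-0.37), AGAP001499-RA (-0.48), AGAP007896-RA (-0.51), AGAP005060-RA (-0.53) and AGAP001022-RA (-0.54) formed a run of small differences. For AGAP000913-RA the medians were 929.6 normalised counts in males and 1205 in females, and for AGAP001100-RA 1215 and 1592. All 6 of these transcripts had the opposite sign when libraries were scaled by total counts, and AGAP000913-RA was then called higher in males (0.26, adjusted p = 0.00360, edgeR's quasi-likelihood test). AGAP003335-RA (-1.13), AGAP000854-RA (-1.53), AGAP009793-RA (-1.56), AGAP009007-RA (-1.69) and AGAP004783-RA (-1.90) differed more and kept their sign under both scalings. The remaining uncalled member was AGAP013324-RB (-0.84 ± 0.46, SE; adjusted p = 0.102, edgeR's quasi-likelihood test), an isoform whose share of its gene ran from 0 to 100% in females. Summed with the RA isoform, its gene was called higher in females (log2 fold change -0.90 ± 0.25, SE; adjusted p = 0.00227, edgeR's quasi-likelihood test on gene sums).

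For most members, libraries of a sex differed from each other more in females. The coefficient of variation over libraries was larger in females for 34 of the 45 members, with a median of 50.2% in females and 38.2% in males. The same share over all transcripts was not computed, so whether this is particular to the members is not known. Within a sex, the slope of log2 count on log2 opsin level was called for few receptors. In females 4.44% of the members fell with the opsin level and 6.67% rose, near the shares of all transcripts. In females, 2 methuselah receptors fell as the opsin level rose, GPRMTH6 (slope -0.40 ± 0.08, SE; adjusted p = 0.00453, edgeR's quasi-likelihood test) and GPRMTH4 (-0.50 ± 0.13, SE; adjusted p = 0.0226), where 3.89% of all transcripts fell. Both were also higher in females than in males, and how the slope within females relates to that difference was not tested. In the other direction 3 members rose, against 4.28% of all transcripts, namely AGAP000913-RA (0.20 ± 0.06, SE), AGAP007896-RA (0.53 ± 0.15, SE) and GPRDIH2 (0.75 ± 0.20, SE).

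In males, AGAP002881-RB fell with the opsin level (-0.25 ± 0.06, SE; adjusted p = 0.0441, edgeR's quasi-likelihood test) and no member rose, where 0.251% of all transcripts fell and 1.80% rose. Leaving out replicates changed these calls. In females, leaving out replicate 1 left 3 members rising and 1 falling, leaving out replicate 3 left 0 members rising and 0 falling, and leaving out replicate 2 left 1 and 0. A term for the replicate number in the model gave more members rising and fewer falling in females. With time point as a covariate, GPRMTH6, GPRMTH4 and GPRDIH2 were called in females. The call of AGAP002881-RB in males was lost with that covariate, without the filter on low counts and whichever replicate was left out. Called or not, the slope was positive for 32 of 44 members in males and 30 of 45 in females, against 46.2% and 49.9% of all transcripts.

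**Figure D4:**
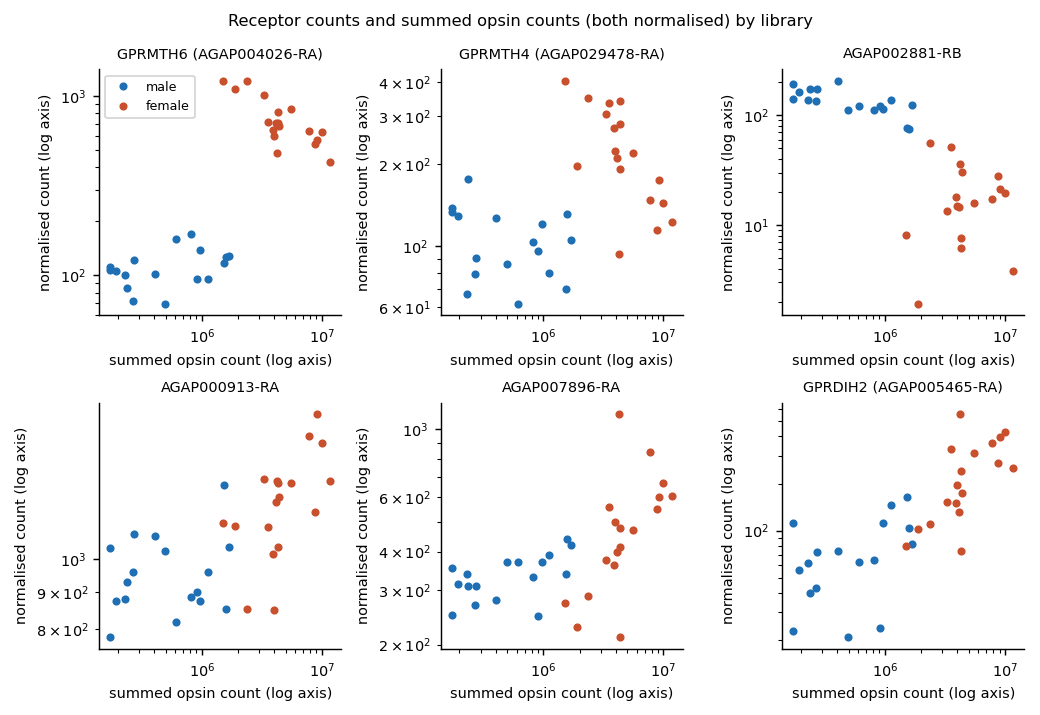
Normalised counts (y axis, log) of the 6 receptors with a called opsin slope are plotted against the summed normalised counts of 10 opsin transcripts (x axis, log) for each library. Within the 18 female libraries GPRMTH6 and GPRMTH4 go down and AGAP000913-RA, AGAP007896-RA and GPRDIH2 go up, and within the 17 male libraries AGAP002881-RB goes down.

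The sex differences were then read at each time point, since males swarm at dusk. With 3 libraries a group (2 for males at ZT12), 12 members were called at ZT0, 11 at ZT4, 19 at ZT8, 8 at ZT12, 11 at ZT16 and 13 at ZT20 by edgeR's quasi-likelihood test. Over all transcripts, the called shares were 31.9%, 27.3%, 29.2%, 28.7%, 24.8% and 26.7% in the same order. The number of members higher in males was 4 at ZT0, ZT4 and ZT8 and 3 at the other time points. Shares of all transcripts by direction were not computed for single time points. Called at all 6 time points were 5 members, GPRMTH6, GPRMTH2, AGAP011320-RA, AGAP011641-RA and AGAP002881-RB, against 12.7% of all transcripts. At no time point were 21 members called, which is 46.7%, against 48.1% of all transcripts. The direction was the same at all 6 time points for 35 of the 38 members called in the comparison of the sexes, and the 3 exceptions were GPRSTN, GPRNNB3 and AGAP029632-RA, each with 1 time point on the female side.

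No member changed with time of day at the threshold used. By edgeR's quasi-likelihood test over the 6 time points, 0 of 44 members tested were called in males and 0 of 45 in females, against 1.67% and 1.23% of all transcripts. At an unadjusted p under 0.05 there were 5 in males and 1 in females, against 9.25% and 9.09%, and DESeq2 called 0 in males and 1 in females, AGAP011641-RA, against 4.21% and 4.37%. No member entered the test for a rhythm, which was given to transcripts past the time test and called 1.32% of all transcripts in males and 1.14% in females. Read alone, JTK_CYCLE, a rank test for periodic curves, had a p under 0.05 for 1 member per sex, against 6.27% and 6.61% of all transcripts. These were GPRMTH4 in males (exact p = 0.0141) and AGAP008237-RA in females (exact p = 0.00212), each before adjustment over transcripts.

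The curve of AGAP008237-RA in females was higher in the light phase. Its mean normalised counts were 125 ± 29 (SD, n = 3) at ZT0, 173 ± 111 at ZT4 and 144 ± 85 at ZT8, and 44.7 ± 22.6 at ZT12, 34.3 ± 29.8 at ZT16 and 48.7 ± 17.7 at ZT20. Every female library of ZT0 to ZT8 except 1 at ZT4, at 63.9, exceeded 65.5, the highest of the later time points. In males its means were 16.5 at ZT0, 28.4 at ZT4 and 14.7 at ZT8 and lay at 6.6 or less afterwards. The time test was not passed in either sex (adjusted p = 0.619 in males and 0.676 in females, edgeR's quasi-likelihood test).

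AGAP011641-RA had the lowest p of the members for a difference between the time courses of the sexes. In females its mean was 207 ± 71 (SD, n = 3) at ZT4 and 54.1 ± 31.6 at ZT20, while in males it stayed between 474 at ZT16 and 640.0 at ZT12. The interaction of sex and time had an unadjusted p of 0.0117 and an adjusted p of 0.808 by edgeR's quasi-likelihood test. In total 0 of 45 members were called for the interaction, against 0.00775% of all transcripts, 1 had an unadjusted p under 0.05, against 4.52%, and DESeq2 called 0, against 0.537%. GPRMTH6 kept its female excess throughout, with female means from 548 ± 59 (SD, n = 3) at ZT0 to 945 ± 354 at ZT12 and male means from 89.0 at ZT12 to 125 at ZT4.

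**Figure D5:**
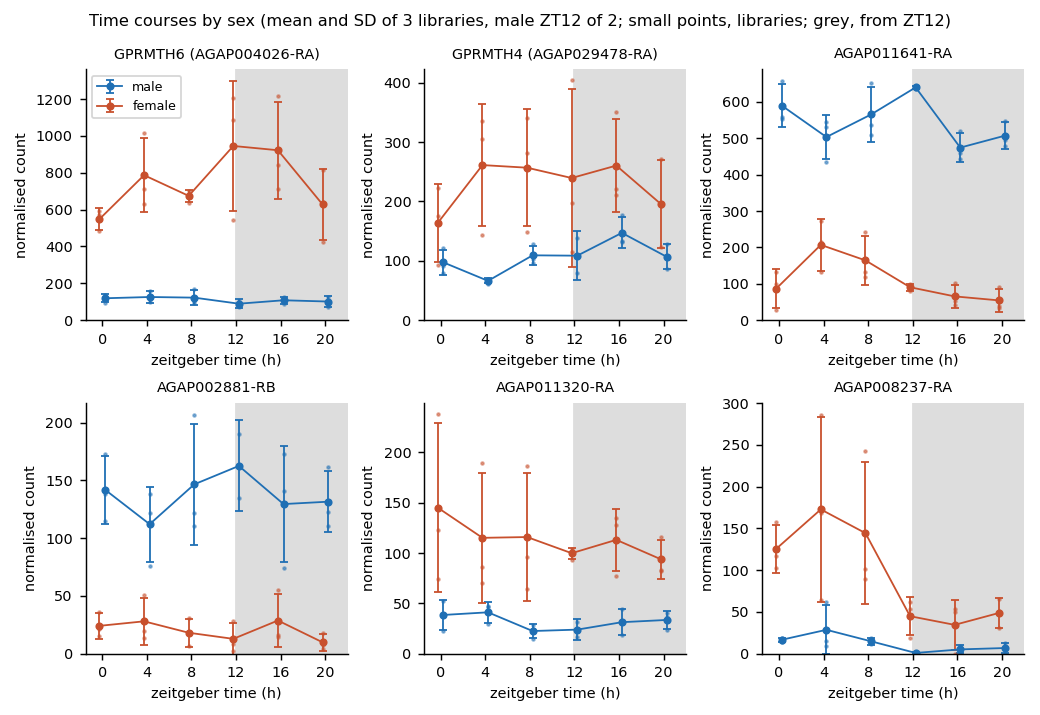
Normalised counts (y axis) are plotted against zeitgeber time (x axis, h) for 6 receptors, with mean and SD per sex and time point, single libraries as small points and grey from ZT12 on. The sexes stay apart at all 6 time points for GPRMTH6, AGAP011641-RA, AGAP002881-RB and AGAP011320-RA, and AGAP008237-RA in females is higher from ZT0 to ZT8 than from ZT12 to ZT20.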

How the data were processed

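RNA of second antennal segments, from collections of 35 mosquitoes, was sequenced by the authors as paired reads of 38 bp, and the reads were assigned with Kallisto 0.46.0 to the transcripts of VectorBase release 53. The deposited table holds estimated counts per transcript, without normalisation, for 36 libraries. Of its columns, 0 were left without a sample. A read that fits several isoforms or paralogs is divided among them, and no molecular identifiers were used, so counts carry PCR copies. Transcript lengths were not used here, so levels are not compared between genes.

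Estimated counts were rounded and tested with R 4.3.3 and edgeR 4.0.16 (TMM, filterByExpr on the groups, quasi-likelihood F-test, Benjamini-Hochberg adjustment over all transcripts, threshold 0.05). For the sexes, the model held sex and time point as terms. Further fits compared the sexes at each time point, the 6 time points within a sex, the interaction, and the slope on the opsin level. Standard errors (SE) were derived from the test, as the size of the coefficient over the root of F. Normalised counts used size factors of DESeq2 1.42.0 over both sexes. JTK_CYCLE was an own implementation with an exact null, for periods every 4 h from 8 to 24 h. Its smallest p was multiplied by the 20 period and phase combinations (Bonferroni). Python 3.11.15, limma 3.58.1, numpy 2.4.6, scipy 1.17.1 and pandas 2.3.3 served for the rest. The fits for sex, for sex at ZT0, for time, interaction and opsin slope, and JTK_CYCLE, were run on simulated counts. These counts had a single fixed dispersion and large effects built in. The other fits, with the opsin covariate among them, were not run on simulated counts.

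All 45 members are accounted for. Values are given for members without overlap between the sexes, for the 6 with the largest change in each direction, for those of 1 list only, with 2 listed isoforms or with a symbol, for those of highest and lowest mean level, and for any past a time or rhythm test. AGAP008237-RA and AGAP011641-RA are shown over time because of their values. The members, families and lists were chosen with earlier results of these data known. Names come from the study's lists, and 0 of the member genes were found in the RefSeq gene table. Libraries of 1 sex and time point were no copies of each other (34 pairs, chi-square per degree of freedom of at least 42.3).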

Additional observations from a re-analysis of the deposited data

Results flagged for a closer look

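The male ZT12 library that was left out of all comparisons held counts for many of these receptors, at unusual levels. The authors discarded it for low quality, because mechanosensory genes usually abundant in the JO were very low in it. In it, 32 of the 45 members had more than 3 estimated counts, the limit that a count of 0 allows, while 12 were at 0. AGAP011641-RA had 10289 estimated counts there, GPRSTN (AGAP004850-RA) 4201 and GPRMTH3 (AGAP009453-RA) 2313. Summed over the 17 other male libraries, the same transcripts had 11851, 15560 and 7036. In this library 5540 of the 15863 transcripts were at 0, against a median of 2887 in the other male libraries. The share of all transcripts with more than 3 counts in it was not computed. No group had between 4 and 10 libraries, so single libraries were not searched for outlying values.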

How the results depend on the processing

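The sex difference called 8 members higher in males and 30 in females. With the opsin covariate the counts were 2 and 8, and all transcripts called fell from 8664 to 3662. With total counts only, 14 were higher in males. Leaving out each replicate in turn gave 4 to 6 members higher in males. The calls at ZT20 went from 13 to 7 with total counts only. With the opsin covariate the sign changed for AGAP004850-RA (-0.30), AGAP007896-RA (0.16) and AGAP029498-RA (0.29) and the uncalled AGAP003658-RA (0.46) and AGAP013324-RB (0.09), and with total counts for AGAP000913-RA (0.26), AGAP001022-RA (0.0155), AGAP001100-RA (0.15), AGAP001499-RA (0.0217), AGAP005060-RA (0.0131), AGAP007896-RA (0.0524), AGAP009661-RA (0.52) and AGAP003658-RA (0.21), the last pair uncalled in the comparison itself. The time test called 1 member in males with all 18 male libraries, and DESeq2 called 1 in females, AGAP011641-RA in both cases. The opsin slope in males had 1 rising and 0 falling without the filter on low counts and 0 falling with time point as a covariate or without any replicate. In females, 3 rose and 2 fell. With time point as a covariate 1 rose, and leaving out each replicate gave 0 to 3 rising and 0 to 1 falling. The causes were not tested. With the replicate block, 10 rose and 1 fell in females, and no call of a member changed for the sex difference. The labels do not say whether same-numbered libraries were collected or processed together. Deviations of same-numbered male and female libraries correlated above 0.1 in 6 of 17 pairs, which cannot decide it. With all 36 libraries, 9 members lost their sex call and 1 gained one. Leaving out the male ZT16 library with the high Orco level, chosen after seeing the data, changed no member's sex call. No filter on low counts and DESeq2 size factors changed none either. DESeq2 itself added 1 call, and voom with limma added 1 and lost 1. Members with few counts, such as AGAP001499-RB, GPRNNA1 and AGAP002881-RA, are limited by depth.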
